A study of Mus musculus with 18 samples.

Results

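The genes described here encode the cohesin ring (*Smc1a*, *Smc3* and *Rad21*), its loader (*Nipbl* and *Mau2*), the regulators *Pds5a*, *Pds5b*, *Esco1* and *Esco2*, and *Ctcf*. They were chosen by name as the shared machinery with which STAG1 works, and all 10 were found among the 18659 genes of the table of all sets. The rule uses none of their values, and STAG1 itself, the target of the siRNAs, is not among them.

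Cohesin is a ring-shaped complex that holds sister chromatids together from replication to mitosis and that extrudes chromatin loops in interphase. SMC1A and SMC3 are joined by the kleisin RAD21, and a STAG subunit binds RAD21. The NIPBL–MAU2 loader puts cohesin on chromatin and drives extrusion, PDS5 proteins act with WAPL in its release and with the ESCO acetyltransferases in stabilising it, and CTCF bound to DNA stops extrusion at loop anchors.

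RNA-seq was done in male E14 mESCs (mouse embryonic stem cells) grown on gelatin in serum (FCS) with LIF. Cells were transfected for 24 h with scrambled control siRNA (scr) or with siRNA to *Stag1*, namely SP (SmartPool, a mix of commercial siRNAs), 3p (a pool to the 3′ end), 5p (1 custom duplex to the 5′ end) or SATS (an enzymatically prepared pool to the 5′ UTR of transcripts from the SATS start site). Set 1 held 1 scr library and 3 SP libraries (1a, 1b and 1c). Sets 2 and 3 held 1 library each of scr, SP, 3p, 5p and SATS, with 1 untreated library in set 2 and 1 library of luciferase control siRNA in set 3. All 16 libraries were thus of 1 cell line, total RNA was depleted of rRNA, and apart from the untreated cells all had received an siRNA. The study calls its replicate libraries independent without saying whether cultures, transfections or libraries were repeated, so p-values measure the spread between these libraries, which may be partly technical. In such bulk RNA, fewer cells expressing a gene and less RNA per cell cannot be told apart.

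*Stag1*, the targeted gene, stood at 17.5% to 32.8% of scr of the same set in the 5 SP libraries, at 20.9% and 17.3% with 3p, at 23.5% and 18.98% with 5p and at 50.5% and 49.7% with SATS (sets 2 and 3). It stood at 86.3% in untreated cells and at 104% with luciferase siRNA. Set 1 was shallower, with 9023224 to 14040830 reads on genes per library (*Rn45s* 69.2% to 79.1% of them), than sets 2 and 3, with 32137666 to 45660840 (*Rn45s* 14.7% to 23.9%). The members were well covered, from 92 reads for *Esco1* in scr of set 1 to 13096 reads for *Rad21*. All 8 markers of embryonic stem cells (*Pou5f1*, *Nanog* and others) were read in every library, with at least 80 reads.

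Values are a normalised signal, the reads of a gene over 1 size factor per library. Calls were made with limma on log2(signal + 1), at a p under 0.05 after Benjamini-Hochberg adjustment over every gene tested, and all 10 members passed the filter on low values (a summed signal of at least 10) in every fit.

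At 24 h, no member fell or rose past the threshold against scr with any of the 4 siRNAs when limma was fitted without a block. With SP in sets 2 and 3, 0 of 10 members were called, against 0.00606% of the 16490 genes tested. The share of all genes was 0.00606% with 3p, 0.0121% with 5p and 0% with SATS, again with 0 members called. For 5p against 3p, and for SP over 3 sets (15970 genes), 0 members and 0% of genes were called. The target *Stag1* was itself not called in this fit for SP over 3 sets or with SATS. A count of 0 members there thus does not show that the members were unchanged. At an unadjusted p under 0.05, 0 members passed in the 4 comparisons with scr and in SP over 3 sets, and 1 of 10 (*Rad21*) passed for 5p against 3p. Of the 16490 genes, 286 passed so with 3p, 598 with 5p, 650 with SATS and 674 for 5p against 3p. edgeR on the recovered reads called 0 members in the 6 comparisons, and DESeq2 called 0 in the 5 over sets 2 and 3. Same-numbered libraries deviated together, so the fit with the set as a block is given beside each call that it changes. In that fit 0.746% of genes were called with SP, 0.285% with 3p, 2.37% with 5p, 2.64% with SATS and 3.26% for 5p against 3p, and 0% for SP over 3 sets. *Stag1* was again not called by limma for SP over 3 sets. Members were called there with SATS alone, namely *Esco1* and *Esco2*, or 2 of 10. At an unadjusted p under 0.05 in that fit, *Smc1a* also passed with SP and with 3p, and *Rad21* for 5p against 3p. Of the 16490 genes, 1720 passed so with 3p, 2595 with 5p, 3108 with SATS and 2610 for 5p against 3p.

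**Figure D1:**
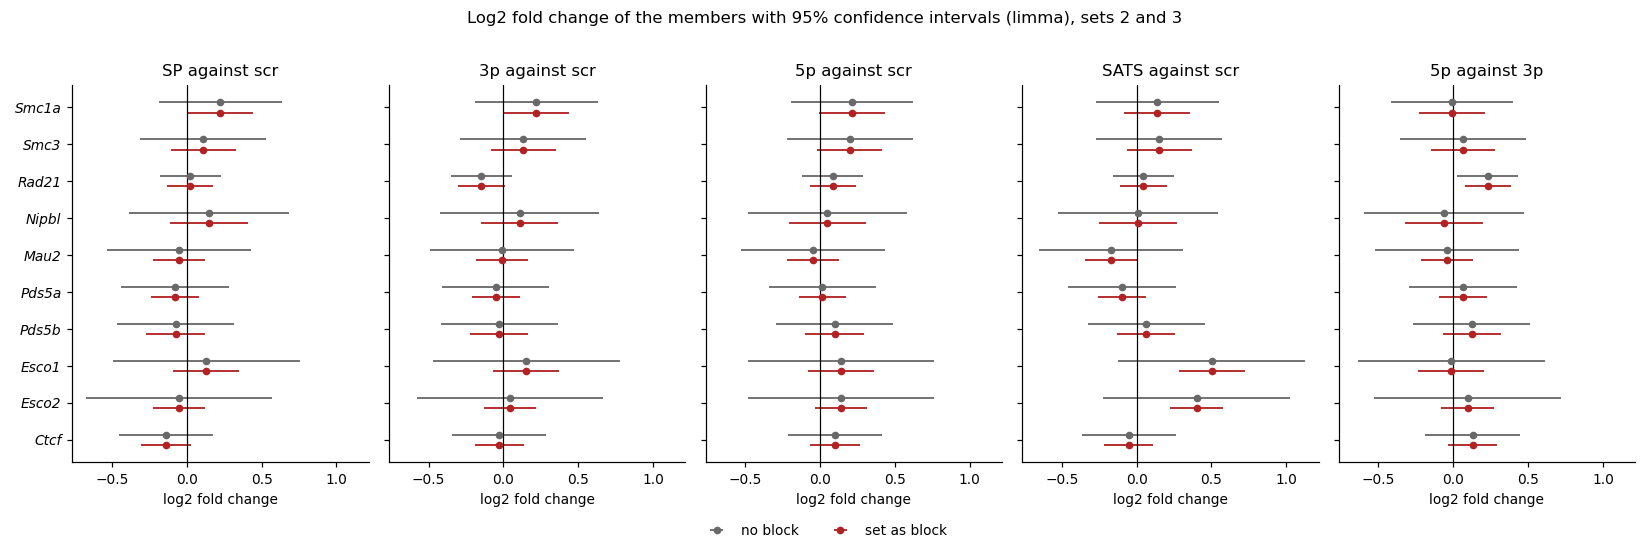
Log2 fold change of each member (points) with its 95% confidence interval (lines) from limma over sets 2 and 3, without a block (grey) and with the set as a block (red), in 5 comparisons. Intervals are narrower with the block, and in the comparisons with scr those of *Esco1* (0.28 to 0.72) and *Esco2* (0.23 to 0.58) with SATS lie farthest from 0.

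Across the 80 ratios of the 10 members with 4 siRNAs in sets 2 and 3, the median was 101% of scr of the same set and the range was 85.0% to 147%. Of these, 65 lay between 80% and 120%. The untreated and luciferase libraries, which had no siRNA to *Stag1*, spanned 88.0% to 110% of scr over their 20 ratios. The lower bound of the siRNA ratios was thus near that of the controls, while the upper bound lay above it.

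**Figure D2:**
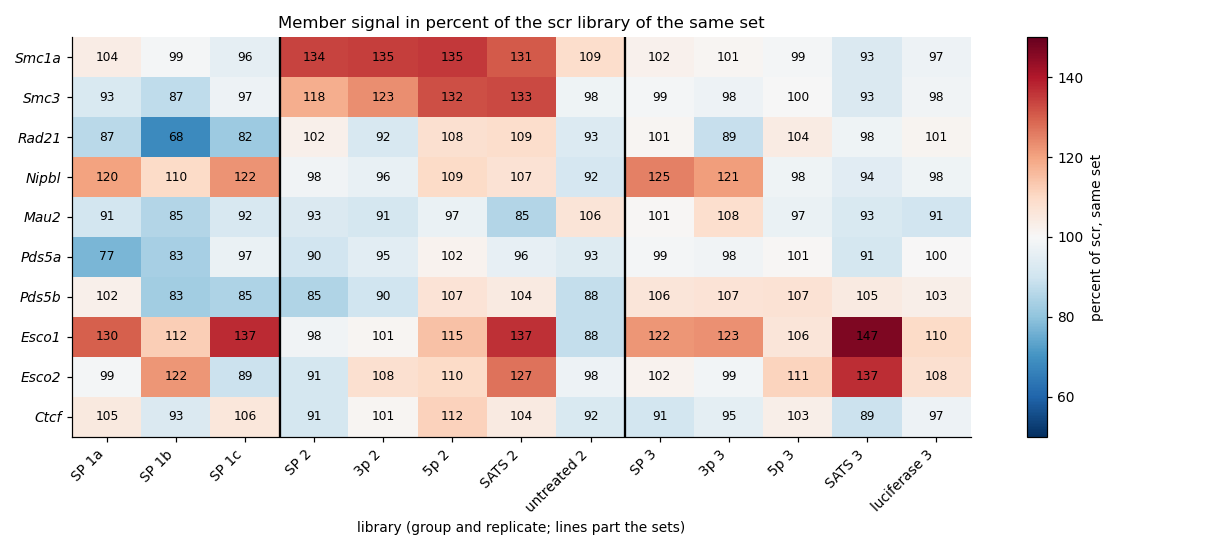
Signal of each member (rows) in each library (columns) in percent of scr in its own set, with the ratio printed in each cell. Red cells of *Smc1a* (131% to 135%) and *Smc3* (118% to 133%) fill the 4 siRNA columns of set 2, and *Esco1* and *Esco2* are red with SATS in sets 2 and 3.

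Per length of annotated exon, *Rad21* was the highest of the members in the 12 libraries of sets 2 and 3, with a median of 1006 signal units per kb (886 to 1092). *Smc3* followed at 486 (454 to 618) and *Ctcf* at 466 (392 to 533). *Smc3* lay above *Ctcf* in 7 of 12 libraries, so this pair did not differ beyond the spread. *Nipbl* had a median of 330 per kb (274 to 439) and *Smc1a* one of 321 (291 to 394), and *Nipbl* lay above *Smc1a* in 7 of 12. The lower group comprised *Esco2* at 206 per kb (146 to 290), *Pds5b* at 191 (151 to 206), *Pds5a* at 172 (150 to 192), *Esco1* at 141 (98.3 to 202) and *Mau2* at 122 (98.1 to 146), with overlapping ranges between all neighbours. Within libraries, *Esco2* lay above *Pds5b* in 8 of 12 and *Pds5b* above *Pds5a* in 12 of 12. *Pds5a* lay above *Esco1* in 11 of 12 and *Esco1* above *Mau2* in 10 of 12. No range overlapped between *Rad21* and *Smc3* or between *Smc1a* and *Esco2*. These levels divide by all annotated exon bases of a gene, from 4232 for *Rad21* to 19335 for *Pds5a*, and a gene with long exons that these cells do not use is set too low.

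**Figure D3:**
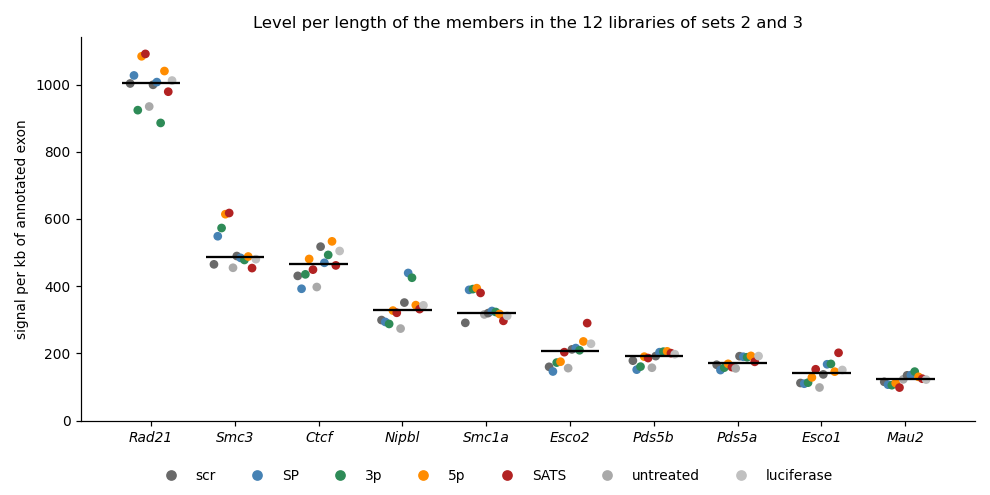
Signal per kb of annotated exon of each member in the 12 libraries of sets 2 and 3 (points, coloured by group), with the median as a bar. *Rad21* stands apart at 886 to 1092, and the 5 genes from *Esco2* to *Mau2* stand below 300.

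*Smc1a* and *Smc3* encode the SMC arms of the ring, long coiled-coil ATPases that pair at the hinge. They rose and fell together over the libraries, so the promoter of each is printed here, 250 bases before to 50 bases after the RefSeq start (GRCm38.p6), 5′ to 3′. *Smc1a* lies at chrX:152016428-152062694 and its promoter at chrX:152016178-152016477. *Smc3* lies at chr19:53600398-53645833 and its promoter at chr19:53600146-53600445, and all of these are on the plus strand. Capitals mark GGGCGG (the GC box) and CCAAT, on either strand.

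Smc1a: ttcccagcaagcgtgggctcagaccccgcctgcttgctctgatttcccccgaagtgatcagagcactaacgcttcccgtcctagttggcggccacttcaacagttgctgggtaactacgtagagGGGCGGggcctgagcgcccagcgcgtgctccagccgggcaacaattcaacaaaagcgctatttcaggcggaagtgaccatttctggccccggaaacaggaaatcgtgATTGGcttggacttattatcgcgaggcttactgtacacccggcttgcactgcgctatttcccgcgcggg

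Smc3: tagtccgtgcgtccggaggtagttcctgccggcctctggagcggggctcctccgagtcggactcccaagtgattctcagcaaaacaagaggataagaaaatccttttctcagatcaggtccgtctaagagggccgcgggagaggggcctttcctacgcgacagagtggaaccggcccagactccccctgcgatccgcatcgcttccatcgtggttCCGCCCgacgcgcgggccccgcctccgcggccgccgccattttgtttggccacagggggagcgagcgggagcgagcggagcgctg

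The *Smc1a* promoter held 1 GC box, 126 bases before the start, and 1 CCAAT on the opposite strand that begins 19 bases before it. The *Smc3* promoter held 1 GC box on the opposite strand, 35 bases before the start, and no CCAAT. Of 32851 promoters of the same length, 35.7% held GGGCGG and 37.4% held CCAAT on either strand. CCGGAAG (1 form of the ETS site, in 8.86% of all promoters), GCGCATGCG (NRF1, in 1.75%) and TATAAA (in 13.6%) were searched on both strands too. These exact letters had no match in either window, and other forms of the sites were not searched. A GC box was thus the 1 motif of these that the pair shared, and it was common among all promoters. Of the other members, *Mau2*, *Pds5a*, *Pds5b* and *Ctcf* had entries in the promoter table, and each had a GC box (*Mau2* in 1 of its 2 entries).

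In set 2 the signal of *Smc1a* was 1678 with scr and 1822 in untreated cells, and 2245 with SP, 2257 with 3p, 2273 with 5p and 2191 with SATS. All 4 siRNA libraries thus lay above scr of that set, at 131% to 135% of it, as they did for 18% of all genes. They also lay above the untreated library, and the share of all genes above both controls was not counted. In set 3 *Smc1a* was at 1845 with scr, 1797 with luciferase, 1881 with SP, 1864 with 3p, 1829 with 5p and 1712 with SATS. These 6 libraries overlapped, and SATS was the lowest of them. In set 1 *Smc1a* was at 2772 with scr and at 2877, 2743 and 2650 in SP 1a, 1b and 1c, or 95.6% to 104% of scr.

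*Smc3* followed the same course. In set 2 its signal was 2577 with scr and 2520 in untreated cells, against 3040 with SP, 3176 with 3p, 3404 with 5p and 3423 with SATS. The 4 siRNA libraries stood at 118% to 133% of scr, above both controls, a rule for which no share of all genes was counted. Its values in set 3 were 2714 with scr, 2662 with luciferase, 2683 with SP, 2648 with 3p, 2705 with 5p and 2515 with SATS, so that scr was the highest and SATS the lowest of 6 close values. In set 1 it was at 4835 with scr and at 4475, 4213 and 4703 in 1a, 1b and 1c.

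**Figure D4:**
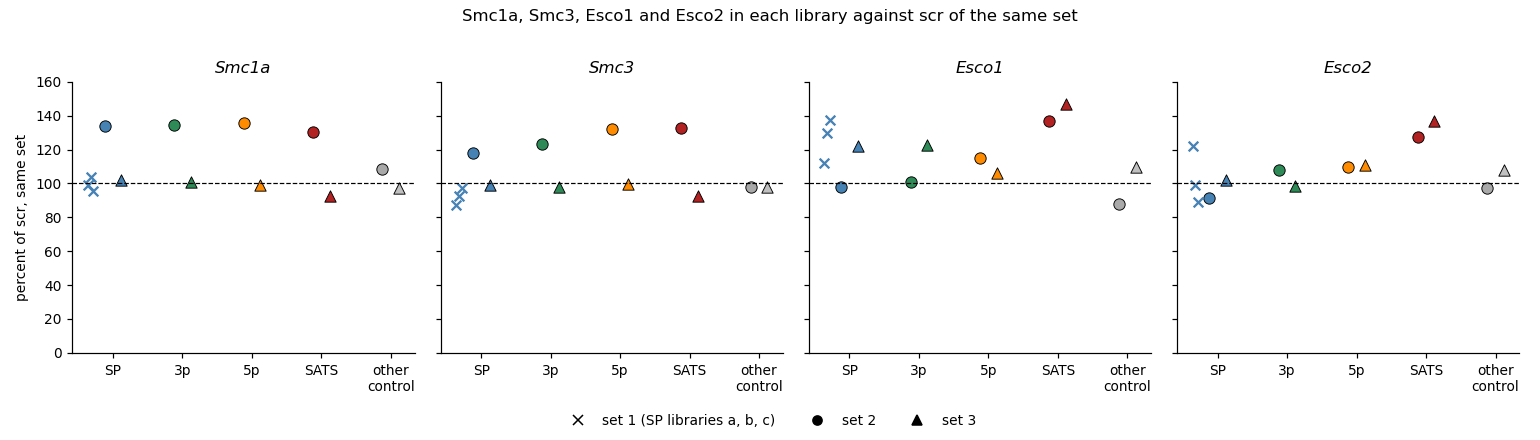
Signal of *Smc1a*, *Smc3*, *Esco1* and *Esco2* in percent of scr of the same set (dashed line at 100) for each siRNA and for the untreated (set 2) or luciferase (set 3) library, with circles for set 2, triangles for set 3 and crosses for the SP libraries of set 1. Circles lie above triangles for *Smc1a* and *Smc3* with all 4 siRNAs, whereas *Esco1* and *Esco2* are highest with SATS in both sets.

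The 4 siRNAs were then pooled within each set, a comparison chosen after these values were seen. The 4 siRNA libraries were compared with the 2 controls of their set with limma over 12 libraries and 16684 genes. In set 2 the log2 difference was 0.36 ± 0.07 (SE, adjusted p = 0.0748) for *Smc1a* and 0.35 ± 0.07 (adjusted p = 0.0935) for *Smc3*, with 4 of 4 siRNA libraries higher. Neither passed the threshold, 0 of 10 members did, and 0.0659% of all genes did. 2 of the 10 passed an unadjusted p under 0.05, as did 1193 of the 16684 genes. Without the SATS library of set 3, which enters through the estimate of the spread, the adjusted p was 0.0317 for *Smc1a* and 0.0458 for *Smc3*. It was 0.652 and 0.518 without scr of set 2, and 0.638 and 1.00 without the untreated library, and neither gene passed when any library other than that SATS library was left out. In set 3 the log2 differences were 0.00 ± 0.07 (95% interval −0.14 to 0.14) and −0.03 ± 0.07 (−0.17 to 0.12), and 0.018% of all genes passed. The difference of the sets was 0.36 ± 0.09 for *Smc1a* and 0.38 ± 0.10 for *Smc3* (SE, log2, limma adjusted p = 1.00 for each), and both passed an unadjusted p under 0.05. No gene passed there (0%), with 504 at an unadjusted p under 0.05. The 4 siRNAs are not replicates of 1 reagent or of 1 degree of knockdown. By the methods, the numbers of the siRNAs in the 3p pool are also listed for SP. SATS left more of the *Stag1* signal than the others. The p-values of this pooled comparison thus measure the spread between unlike reagents and unlike controls within the sets. Of the 10 members, only *Smc1a* and *Smc3* had all 4 siRNA libraries of set 2 above, and *Mau2* had all 4 below, the scr library, where 18% of all 16684 genes had all 4 above and 18.9% all 4 below.

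Set 2 also differed from the others in a sum of fibroblast markers, most of which was *Col1a1*. The summed signal of 4 of them (*Col1a1*, *Col1a2*, *Thy1* and *Postn*) was 2354 to 3454 in its siRNA libraries and 2642 to 5338 in its controls, against 80.4 to 443 in set 1 and 277 to 495 in set 3. The highest signal in any library was 4627 for *Col1a1*, 593 for *Col1a2*, 155 for *Thy1* and 67.4 for *Postn*. That of *Thy1* was in an SP library of set 1 and the others were in untreated cells of set 2, so the markers did not all peak in set 2. The siRNA libraries of set 2 overlapped its controls in this sum. Whether fibroblasts were present, and any part of them in the values of *Smc1a* and *Smc3*, was not tested. The sum of 8 genes of cycling cells (*Mki67*, *Top2a* and others) was 40323 to 41532 in the siRNA libraries of set 2 and 40346 to 40416 in its controls.

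*Rad21* (chr15:51962240-51991747) encodes the kleisin that closes the ring and that separase cuts at anaphase. In set 2 its signal was 4247 with scr, 3956 in untreated cells, 4348 with SP, 3911 with 3p, 4589 with 5p and 4620 with SATS. Set 3 gave 4230 with scr, 4284 with luciferase, 4264 with SP, 3750 with 3p, 4403 with 5p and 4143 with SATS. The 3p library was the lowest of 6 in each of these sets, at 92.1% and 88.6% of scr, and 5p lay above scr in both, at 108% and 104%. Of all genes, 29.7% were below scr with 3p in both sets and 32.7% above it with 5p. The share with 3p lowest was not counted. The 5p minus 3p difference was 0.23 ± 0.09 on the log2 scale (SE, 95% interval 0.03 to 0.44, limma adjusted p = 1.00). With the set as a block the SE was 0.07 and the adjusted p 0.108. It therefore missed the threshold in either fit. In set 1 the signal of *Rad21* was 6221 with scr and 5382, 4242 and 5082 with SP, or 86.5%, 68.2% and 81.7%, whereas SP stood at 102% and 101% in sets 2 and 3. Over 3 sets the SP minus scr difference was −0.10 ± 0.18 (95% interval −0.52 to 0.32), and it was 0.02 without set 1.

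**Figure D5:**
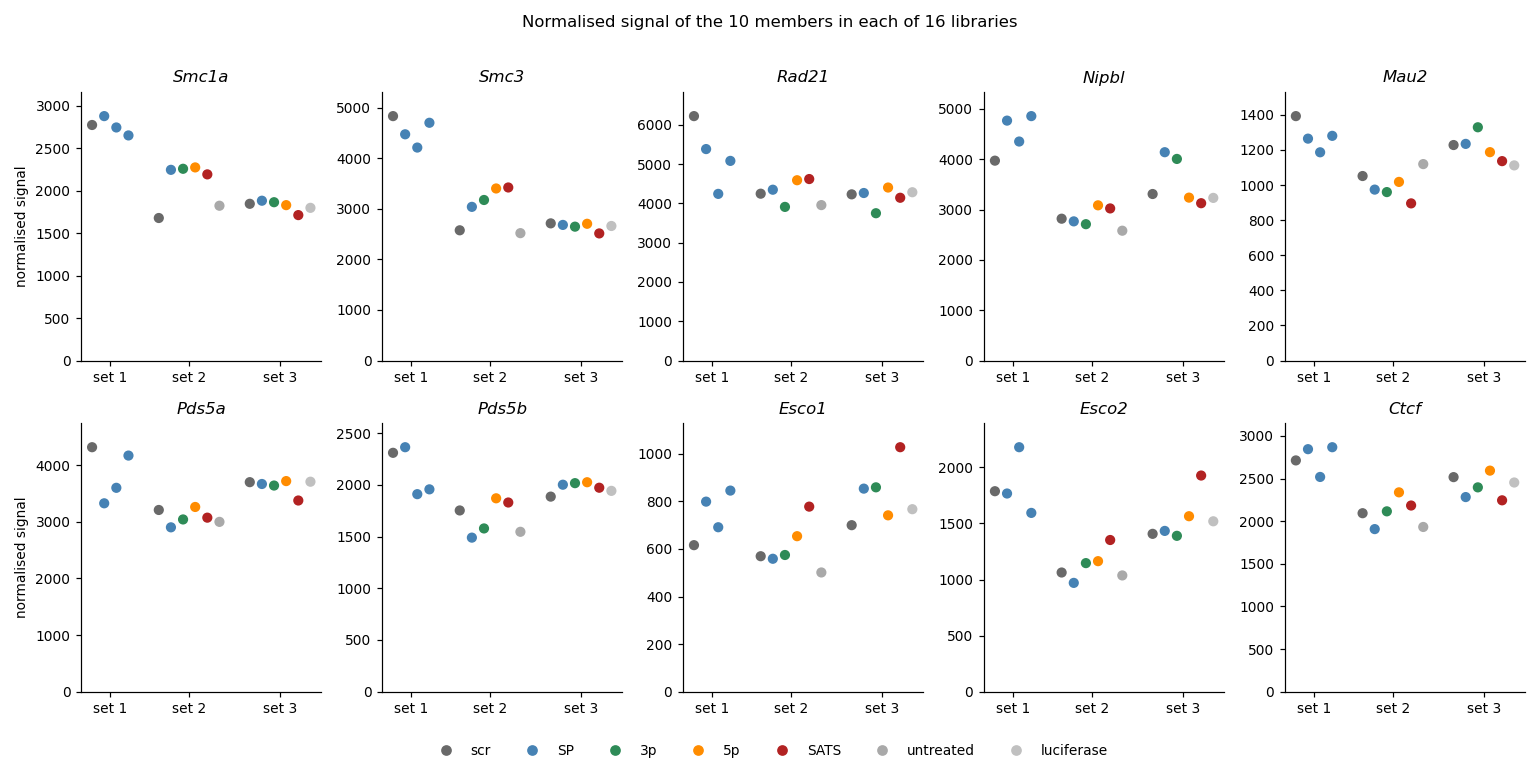
Normalised signal of the 10 members (linear axes from 0) in each of 16 libraries, arranged by set and coloured by group. Within sets 2 and 3 most members vary little between groups, and SATS is the highest library of its set for *Esco1* and *Esco2*.

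*Nipbl* (chr15:8290617-8444463) encodes the large loader subunit that stimulates the cohesin ATPase. Its signal in set 2 was 2818 with scr, 2580 in untreated cells, 2765 with SP, 2709 with 3p, 3084 with 5p and 3022 with SATS. In set 3 it was 3309 with scr, 3231 with luciferase, 4139 with SP, 4005 with 3p, 3237 with 5p and 3126 with SATS. SP and 3p, at 125% and 121% of scr, stood apart from the other 4 libraries of set 3, but in set 2 the same siRNAs were at 98.1% and 96.1%. In set 1 the 3 SP libraries were at 120%, 110% and 122% of scr (4767, 4351 and 4856 against 3971). Over 3 sets the SP difference was 0.18 ± 0.23 (SE, log2, 95% interval −0.36 to 0.71, limma adjusted p = 1.00), and 0.18 ± 0.09 with the block (adjusted p = 0.759).

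*Mau2* (chr8:70016123-70042734) encodes the partner of NIPBL in the loader. Its signal in set 2 was 1051 with scr, 1119 in untreated cells, 974 with SP, 960 with 3p, 1018 with 5p and 896 with SATS. The 4 siRNA libraries of set 2 were thus at 85.2% to 96.8% of scr. Set 3 gave 1228 with scr, 1112 with luciferase, 1235 with SP, 1329 with 3p, 1187 with 5p and 1136 with SATS, a span that put luciferase lowest. The SATS difference was −0.17 ± 0.21 (SE, log2) without and −0.17 ± 0.08 with the block (95% interval −0.35 to 0.00, adjusted p = 0.273). In set 1 SP stood at 90.8%, 85.2% and 91.9% of scr.

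*Pds5a* (chr5:65605721-65698273) and *Pds5b* (chr5:150673739-150810690) encode the HEAT-repeat proteins that bind RAD21 beside the STAG subunit. The signal of *Pds5a* lay between 2904 (SP) and 3263 (5p) in set 2, with scr at 3210, and between 3378 (SATS) and 3721 (5p) in set 3, with scr at 3702. The 5p library was the highest of the siRNA libraries in each of these sets, but the difference from 3p was 0.07 ± 0.15 (SE, log2, 95% interval −0.29 to 0.42), and 0.07 ± 0.07 with the block. In set 1 *Pds5a* stood at 77.1%, 83.4% and 96.6% of scr with SP, and over 3 sets the difference was −0.13 ± 0.16 (adjusted p = 1.00 in limma). *Pds5b* lay between 1490 (SP) and 1870 (5p) in set 2, where scr was at 1753 and untreated at 1546. In set 3 its 4 siRNA libraries were at 105% to 107% of scr and luciferase at 103%, and in set 2 SP and 3p were below scr, at 85.0% and 90.1%. With 5p both paralogs lay above scr in sets 2 and 3, *Pds5a* at 102% and 101% and *Pds5b* at 107% in each, though *Pds5a* no longer did so in both under TMM scaling. With SP, 3p and SATS they had no common direction that held in both sets.

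*Esco1* and *Esco2* encode the acetyltransferases that modify the SMC3 head and thereby make cohesin resistant to release, ESCO1 through the cell cycle and ESCO2 chiefly in S phase. With SATS they gave the largest log2 differences of the members against scr over sets 2 and 3. *Esco1* had a signal of 570 with scr, 501 in untreated cells, 559 with SP, 575 with 3p, 654 with 5p and 778 with SATS in set 2. In set 3 it was 700 with scr, 767 with luciferase, 854 with SP, 859 with 3p, 742 with 5p and 1028 with SATS. SATS was the highest library in each set, at 137% and 147% of scr. A SATS signal above scr in both sets was found for 32.4% of all genes, and the share with SATS highest was not counted.

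*Esco2* (chr14:65819038-65833994) had a signal of 1063 with scr, 1037 in untreated cells, 970 with SP, 1147 with 3p, 1164 with 5p and 1353 with SATS in set 2. In set 3 it was 1408 with scr, 1520 with luciferase, 1434 with SP, 1390 with 3p, 1565 with 5p and 1928 with SATS. SATS was again the highest library of each set, at 127% and 137% of scr, although SATS of set 2 lay below scr of set 3.

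Against scr the SATS difference was 0.50 ± 0.27 for *Esco1* and 0.40 ± 0.27 for *Esco2* (SE, log2, limma adjusted p = 1.00 for each), and 0.50 ± 0.10 and 0.40 ± 0.08 with the set as a block (adjusted p = 0.0269 for each). With the block both genes thus rose, in 2 of 2 sets, where 2.64% of all genes were called. edgeR with the block gave adjusted p = 0.0231 and 0.0237. Each of the 4 SATS and scr libraries was left out in turn, and *Esco2* without SATS of set 2 was the 1 call that held. Without SATS of set 2 the adjusted p in limma with the block was 0.0561 for *Esco1* and 0.0271 for *Esco2*. It was 0.361 and 0.371 without SATS of set 3, 0.123 and 0.137 without scr of set 2, and 0.310 and 0.289 without scr of set 3, with log2 differences of 0.43 to 0.57 for *Esco1* and 0.35 to 0.45 for *Esco2*. With untreated and luciferase as further controls, and the block, the adjusted p was 0.0021 and 0.0025.

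SATS left more of the *Stag1* signal than the other siRNAs did, and it was also set against the mean of SP, 3p and 5p, a comparison chosen after the values were seen. It uses the same SATS libraries as the comparison with scr, so its calls are not separate evidence. The difference was 0.36 ± 0.22 for *Esco1* and 0.36 ± 0.22 for *Esco2* (SE, log2, limma adjusted p = 0.878 and 0.880), when 0.00606% of genes were called. With the block it was 0.36 ± 0.08 (adjusted p = 0.018) and 0.36 ± 0.07 (adjusted p = 0.00682), and 9.36% of all genes were called. Without SATS of set 3 the adjusted p with the block was 0.272 and 0.238, and without SATS of set 2 it was 0.1001 and 0.0197. No other member passed in this comparison.

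With the other siRNAs neither gene was called. *Esco1* was at 98.1% and 122% of scr with SP, 101% and 123% with 3p, and 115% and 106% with 5p in sets 2 and 3, and at 130%, 112% and 137% with SP in set 1 (799, 691 and 846 against 616, from 105 to 215 reads with SP and 92 with scr). Over 3 sets the SP difference of *Esco1* was 0.20 ± 0.20 (SE, log2, limma adjusted p = 1.00) and 0.20 ± 0.11 with the block (adjusted p = 0.759). *Esco2* was at 98.9%, 122% and 89.2% of scr with SP in set 1. Beside the rise of *Esco2*, a gene that follows S phase, the 8 genes of cycling cells stood at 91.6% to 112% of scr with SATS in set 2 and at 89.6% to 138% in set 3, with medians of 101% and 95.1%. *Pcna* (138%) and *Cdk1* (126%) were the highest in set 3. Their part in the result was not tested.

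*Ctcf* (chr8:105636568-105682922) encodes the zinc-finger protein at which loop extrusion stops. Its signal in set 2 was 2093 with scr, 1932 in untreated cells, 1907 with SP, 2115 with 3p, 2338 with 5p and 2183 with SATS. In set 3 it was 2516 with scr, 2453 with luciferase, 2282 with SP, 2396 with 3p, 2592 with 5p and 2244 with SATS. SP was below scr in each set, at 91.1% and 90.7%, and 5p above it, at 112% and 103%. The SP difference was −0.14 ± 0.14 (SE, log2, 95% interval −0.45 to 0.18), and in set 1 SP stood at 105%, 92.8% and 106% of scr.

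With no siRNA did all members share a direction in both sets. With SP, 2 of 10 (*Pds5a* and *Ctcf*) were below scr in both set 2 and set 3 and 2 (*Smc1a* and *Rad21*) above it, where 29% and 28.5% of all genes were. With 3p, 2 were below (*Rad21* and *Pds5a*) and 2 above (*Smc1a* and *Esco1*), against 29.7% and 25.9% of all genes. With 5p, 1 was below (*Mau2*) and 6 were above (*Rad21*, *Pds5a*, *Pds5b*, *Esco1*, *Esco2* and *Ctcf*), against 30.1% and 32.7%. The latter count was 5 under TMM scaling, where *Pds5a* no longer lay above. With SATS, 2 were below (*Mau2* and *Pds5a*) and 3 above (*Pds5b*, *Esco1* and *Esco2*), against 33.8% and 32.4%. These 4 comparisons share the scr libraries. For 5p against 3p, 6 members were higher with 5p in both sets (*Smc3*, *Rad21*, *Pds5a*, *Pds5b*, *Esco2* and *Ctcf*) and 0 lower, against 30.1% and 24.9% of all genes. Under TMM scaling 4 were higher and 1 (*Smc1a*) was lower. The median log2 fold change of the members was −0.01 with SP, 0.02 with 3p, 0.10 with 5p and 0.05 with SATS. With 5p the median over all genes was 0.01. Over both sets together, 5 of 10 members were higher than scr with SP, 5 with 3p, 9 with 5p and 7 with SATS, and the others were lower. The share of all genes was not counted for this rule.

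Over the 12 libraries of sets 2 and 3, each centred within its set, the closest pairs were *Smc1a* with *Smc3* (r = 0.90), *Pds5a* with *Ctcf* (r = 0.79) and *Esco1* with *Esco2* (r = 0.78). Of 36 pairs without *Mau2*, 32 had a positive r, whereas *Mau2* had a negative r with 7 of the 9 other members, down to −0.64 with *Esco2*. The genes most like the mean profile of the members, among 11016 others with a mean signal of at least 50, were *Cdc37l1* (r = 0.96), *Zfp292* (0.95), *D15Ertd621e* (0.94), *Sec63* (0.94) and *Tfg* (0.94). All of these correlations are over the same 12 libraries, which share controls and size factors, and are descriptions.

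A list of 27 other genes of the pathway was counted in the same fits. They cover the STAG subunits and release factors, cleavage and its protection, cohesion at the fork, the meiotic subunits and partners of CTCF. Without the block only *Stag1* was called against scr, with SP, 3p and 5p over sets 2 and 3, and 0 of the 26 others. Over 3 sets *Stag1* was not called with SP by limma in either fit. With the block, 0 of 26 were called with SP and 3p, 2 with 5p and 1 with SATS, beside *Stag1* in all 4. The shares of all genes called there were 0.746% with SP, 0.285% with 3p, 2.37% with 5p and 2.64% with SATS. *Stag2*, the paralog of *Stag1*, was the gene that moved with both. Its log2 difference was −0.40 ± 0.08 with 5p (SE, limma with the block, adjusted p = 0.0229) and 0.52 ± 0.08 with SATS (adjusted p = 0.0154). It stood at 79.1% and 72.3% of scr with 5p, and at 133% and 155% with SATS, in sets 2 and 3. *Ctcfl*, the germline paralog of *Ctcf*, was 1.12 ± 0.26 higher with 5p (log2, adjusted p = 0.0358 with the block) on a low level of 18 to 54 reads in the libraries compared. For SATS against the mean of SP, 3p and 5p, 3 of 26 were called with the block, *Stag2* (0.56 ± 0.07), *Phf2* (−0.50 ± 0.09) and *Stag3* (−0.45 ± 0.11). That count is near the share of all genes called in this comparison, 9.36%. For 5p against 3p with the block only *Stag2* was called (−0.56 ± 0.08, adjusted p = 0.00247), where 3.26% of all genes were. The meiotic subunits, the fork genes and the cleavage genes gave no call against scr in either fit.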

How the data were processed

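Male E14 mESCs in serum were profiled by rRNA-depleted RNA-seq in 16 libraries of 3 sets, and the 2 libraries of 2i cells were not used here. Per the labels and methods, the authors aligned reads to mm10 with HISAT2, counted them with featureCounts and deposited a normalised signal, reads over a size factor from DESeq2 (version 1.14.1 in the submitters' processing notes). A second table of set 1 (10741 genes, edgeR 3.16.5) was used for ratios alone. Dividing each deposited signal by that of 1 read gave whole reads for 100% of values (tolerance 0.01), from which depth was computed. Since reads were amplified by PCR, depth speaks for counting error alone.

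Members and lists were chosen with earlier results of these data known. Groups and set numbers came from the labels, and the SP libraries of set 1 entered as their mean. log2(signal + 1) of genes with a summed signal of at least 10 was fitted with limma 3.58.1 (R 4.3.3, trend), over 10 libraries of sets 2 and 3 or 6 samples of 3 sets. Deviations of same-numbered libraries from their group means correlated at 0.77 to 0.82 over 3 sets and at 0.81 to 0.93 in sets 2 and 3, so the set numbers pair the samples. Alternatives were the set as a block, pseudocounts of 0.1 and 10, no filter or a mean of at least 50, TMM, edgeR 4.0.16 and DESeq2 1.42.0 on reads, further controls and leaving out libraries. Named genes were all members, other pathway genes that passed a test, and the 5 genes most like the members. limma and edgeR calls were tested on simulated data whose spread was set by hand and not fitted to these libraries. This checks the code and not the calls made here. Coordinates are from GENCODE M21 (GRCm38, the assembly of mm10), promoters from RefSeq (GRCm38.p6). For 1 member neither is reported here.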

Additional observations from a re-analysis of the deposited data

Results flagged for a closer look

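*Smc1a* in SP was singled out because 1 of its 5 SP libraries lay far from the others. That of set 2 stood at 134% of scr of the same set, while the other SP libraries stood at 95.6% to 104%, and the gap was 0.785 of the whole range (Dixon's test for 5 libraries, past its 95% value). Libraries 1a, 1b and 1c share 1 scr library and are counted here as separate, although the fits take them as 1 sample. For 1 gene with independent libraries, chance gives about 1 such result in 20. The 10 members were each examined in this way and the libraries of set 1 are not independent, so 1 flag among 10 carries little weight. The 3p, 5p and SATS libraries of set 2 stood at 134%, 135% and 131%, and the untreated library at 109%.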

How the results depend on the processing

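Without the block, the count of members called stayed at 0 in all 6 planned comparisons under other pseudocounts, filters, TMM scaling, edgeR, DESeq2, further controls and each SP library of set 1 alone, where these were run. Ratios to scr in set 1 from the table of set 1 moved by less than 1 SD of the SP libraries for all 10 members. Leaving out a library or set gave 0 to 0 as well. With the replicate block that count was 2 with SATS against scr (2 also in edgeR with the block) and 2 with SATS against SP, 3p and 5p, and the block changed no other call of a member. Under the block, leaving out a library gave 0 to 1 members called with SATS against scr and 0 to 2 with SATS against SP, 3p and 5p. TMM scaling gave 2 in each of these, and a pseudocount of 10 or further controls, run under the block for SATS against scr, gave 2 there. For any siRNA against the controls in set 2, leaving out a library gave 0 to 2 members called, the 2 being without SATS of set 3, and 0 to 33 genes against 11. Genes called rose with the pairing from 1 to 123 with SP, 1 to 47 with 3p, 2 to 391 with 5p, 0 to 436 with SATS and 0 to 537 for 5p against 3p. In edgeR with the block they were 134, 50, 397, 550 and 529, and 66 for SP over 3 sets against 0 in limma. DESeq2 called 21, 5, 68, 3 and 88. Further controls gave 4, 2, 27 and 0 against scr. 5 of 225 recomputed log2 fold changes of named members reversed, all of uncalled genes: *Pds5a* in 5p against 3p (−0.064 to 0.195 over the left-out libraries, below 0 without 3p of set 2 or 5p of set 3), *Rad21* in SP over 3 sets (−0.166 to 0.0228, above 0 without set 1) and *Smc1a* in set 3 (−0.0194 to 0.0289, above 0 without scr or SATS). TMM scaling put 1 member lower for 5p against 3p in both sets, against 0. With 2 libraries a group, the spread between sets limits what could be called without the block.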
